A study of Mus musculus with 20 samples.

Results

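The 34 genes described here encode the sensors and transcription factors of the unfolded protein response and the proteins that translocate, fold and degrade secretory and membrane proteins in the endoplasmic reticulum (ER). They were chosen by gene symbol from a read count table of 28338 genes in sorted mouse spleen cells, and all 34 were found and passed the filter on low counts. The cells came from C57BL/6 mice on postnatal day 21. There were 5 groups of 4 libraries. The CD11cint group was sorted from March1-/- mice for intermediate CD11c and CD8 and for CD24. The others were type 1 conventional dendritic cells (cDC1) of March1-/- mice, cDC1 of wild-type (WT) mice, B cells of March1-/- mice and B cells of WT mice. March1 encodes a membrane ubiquitin ligase that keeps surface MHC class II and CD86 low, and the title of the series concerns marginal zone B cells that take membrane from dendritic cells. CD11cint cells of WT mice were not analysed here. How the allele was made is not stated in the labels. Nor is it stated whether each library is a different mouse, so the p-values cover the spread between these libraries alone, which may be technical.

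Proteins that enter the ER are folded by chaperones, joined by disulfide bonds and, when they fail to fold, sent back to the cytosol for degradation. When unfolded proteins build up, the sensors IRE1 alpha (gene Ern1), PERK (Eif2ak3) and ATF6 (Atf6) raise the transcription of folding and degradation genes through XBP1, ATF4 and cleaved ATF6, a programme called the unfolded protein response. In the mouse B lineage XBP1 is required for antibody-secreting plasma cells, and mouse cDC1 are known to keep the IRE1 alpha and XBP1 arm active. Calreticulin (Calr) and ERp57 (Pdia3) also belong to the complex that loads peptides onto MHC class I.

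Many targets of this response carry an ER stress response element (ERSE) near their start, at which XBP1 and ATF6 can bind next to the factor NF-Y. Promoters of 300 bases, from 250 before to 50 after the start, were taken from RefSeq (GRCm38.p6) for the 29 genes with an entry, and both strands were searched. Sec61a1, Hyou1, Derl1, Atf6 and Manf had no entry. The ERSE, searched as CCAAT followed by any 9 bases and CCACG, was present in 9 of these 29 promoters (31.0%), against 0.119% of all 32851 mouse promoters. The related ERSE-II, searched as ATTGG, any 1 base and CCACG, was present in 2 of 29 (6.9%), against 0.0365% of all promoters. TGACGTGG, the XBP1 element known as UPRE, was in 0 of 29, against 0.676% of all. CCACG, which is contained in all 3 of these motifs on one strand or the other, was in 24 of 29 (82.8%), against 32.8% of all promoters. The genes were chosen as known genes of this response, whose targets are known to carry such motifs. These shares therefore describe the list and are no test of it. The sites of 7 genes are printed as examples: the first 5 belong to genes that were higher in cDC1 than in B cells and the last 2 to genes that were lower. Capitals mark the motif (the ERSE-II in Herpud1, the ERSE in the other genes), and each line runs 5′ to 3′ on the strand of the gene; in Calr, Creld2 and Derl3 the motif is in reverse complement.
Hspa5, chr2:34772020-34772048, plus strand: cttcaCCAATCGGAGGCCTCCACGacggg
Calr, chr8:84847070-84847098, minus strand: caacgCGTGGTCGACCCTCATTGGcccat
Creld2, chr15:88819515-88819543, plus strand: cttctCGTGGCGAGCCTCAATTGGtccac
Dnajc3, chr14:118937822-118937850, plus strand: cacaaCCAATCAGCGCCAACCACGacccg
Herpud1, chr8:94386372-94386392, plus strand: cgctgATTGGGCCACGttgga
Syvn1, chr19:6046527-6046555, plus strand: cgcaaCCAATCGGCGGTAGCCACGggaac
Derl3, chr10:75893237-75893265, plus strand: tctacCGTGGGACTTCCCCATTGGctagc
The motif of Hspa5 ended 47 bases before the start, that of Herpud1 42 bases, that of Syvn1 26 bases and that of Derl3 138 bases. Canx, Pdia6 and Hsp90b1 held an ERSE as well, and Dnajb11 an ERSE-II.

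The total count in genes was 22491084 to 32751804 per library. Values are CPM (counts as a share of the TMM-scaled total), with mean ± SD over n = 4 libraries. RPKM is the same level per kilobase of exon, used to compare genes with each other. A gene is called, or said to have risen or fallen, when its adjusted p (edgeR's quasi-likelihood test, Benjamini-Hochberg adjustment over 18710 genes) is under 0.05, and log2 fold changes are given ± SE. The cDC1 libraries held the defining marker Xcr1 at 754.5 to 849.6 CPM (March1-/-) and 833.5 to 1077 CPM (WT), against 1.02 to 4.03 CPM in the other groups. Of the sort markers, Itgax (CD11c) was at 8.32 to 12.7 CPM in CD11cint cells, against 7.05 to 17.0 CPM in B cells. Cd8a was at 4.21 to 6.42 CPM in CD11cint cells, against 0.581 to 2.39 CPM in B cells, and was 3.04-fold higher than in March1-/- B cells (edgeR adjusted p = 4.41e-07). In cDC1, Itgax was at 1051 to 1250 CPM and Cd8a at 923.4 to 1178 CPM. Cd24a was at 662.5 to 788.9 CPM in CD11cint cells and 714.2 to 1002 CPM in B cells. The sorts had a stated purity of 95 to 99%. March1 counts remained in the March1-/- libraries (263 ± 8.26 CPM in March1-/- cDC1, against 341 ± 27.3 CPM in WT cDC1). In B cells March1 was at 150.5 ± 15.2 CPM in March1-/- and 146.9 ± 8.85 CPM in WT. The labels do not say which part of the gene is deleted, so its count is no check of the genotype.

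The summed level of the 34 genes was at its highest in cDC1, though not every gene was. Abundant genes weigh most in this sum. In March1-/- cDC1 these were Hspa5 (1295 CPM), Hsp90b1 (1200 CPM), Calr (1119 CPM) and Pdia3 (1057 CPM). The sum of the 34 genes was 9145 to 10190 CPM over the March1-/- cDC1 libraries and 9730 to 11070 CPM over those of WT cDC1. In March1-/- B cells it was 5180 to 6110 CPM, and in WT B cells 6015 to 6500 CPM. CD11cint cells were at 5688 to 6786 CPM, overlapping both B cell groups and below every cDC1 library. By group mean, 19 genes were highest in WT cDC1, 7 in March1-/- cDC1, 5 in March1-/- B cells, 2 in WT B cells and 1, Pdia4, in CD11cint cells. Per length, Calr was the most abundant of the 34 in cDC1 (389 RPKM in March1-/- and 420.2 RPKM in WT), followed by Pdia3 and Hspa5. In CD11cint cells and in WT B cells Pdia4 was the most abundant (355 RPKM in CD11cint cells and 246 RPKM in WT B cells). In March1-/- B cells it was Hsp90b1 (201 RPKM), closely followed by Pdia4 (196 RPKM). Ern1 was the least abundant in CD11cint cells and B cells (1.81 to 1.85 RPKM), and Derl3 in cDC1 (1.48 RPKM in March1-/- and 1.87 RPKM in WT). In sorted populations, fewer cells with a transcript and less of it per cell cannot be told apart.

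**Figure D1:**
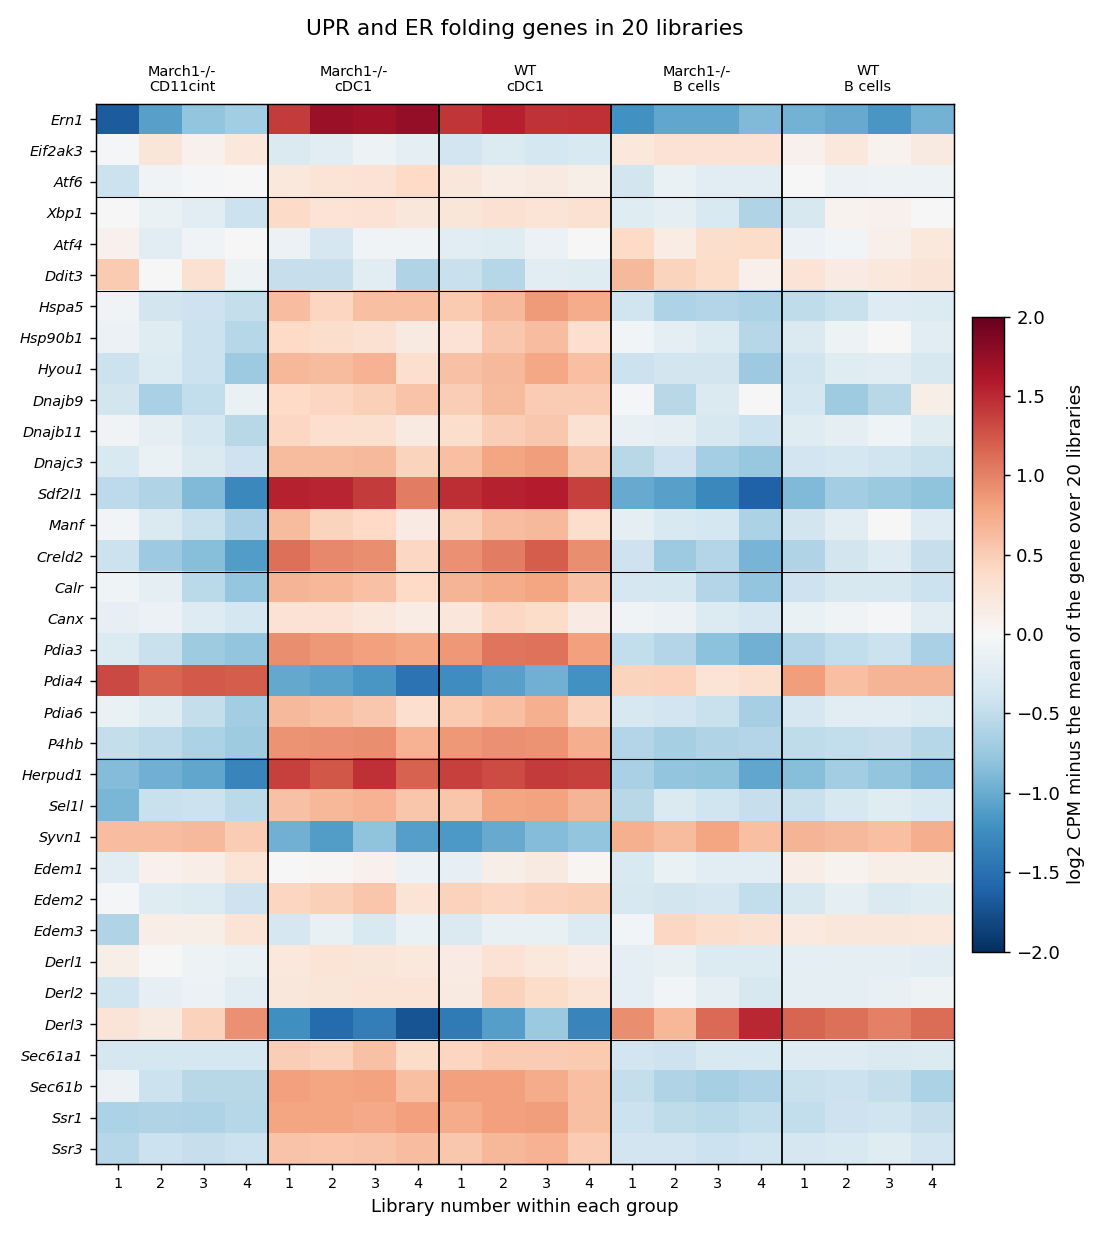
Level of each of the 34 genes (rows, grouped by role with horizontal lines) in each of the 20 libraries (columns, numbered within each group), as log2 CPM minus the mean of the gene over all libraries; red is above and blue below that mean. Most rows are red in the 8 cDC1 libraries, whereas Pdia4, Syvn1, Derl3, Eif2ak3 and Ddit3 are blue there.

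Between cDC1 and B cells most of the folding machinery was higher in cDC1, in both genotypes. In March1-/- mice 27 of the 34 genes were higher and 7 lower in cDC1, against 35.7% higher and 35.9% lower (71.5% in all) among all genes tested. In WT mice 26 were higher, 6 lower and 2 not called, against 34.9% higher and 36.2% lower (71.1% in all) among all genes. The median log2 fold change of the 34 genes was 0.80 in March1-/- and 0.74 in WT, against -0.03 over all genes in March1-/- and -0.04 in WT. In March1-/- mice 16 of 34 differed by at least 2-fold (33.7% of all genes), and in WT mice 15 of 34 (33.2% of all genes). The cDC1 and B cell libraries did not overlap for 34 genes in March1-/- mice (65.8% of all genes) and for 32 in WT mice (68.6%). The share of genes that differ is high throughout in this comparison. The 2 comparisons share no library, and 26 genes were higher and 6 lower in both.

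Among the sensors, Ern1 showed the largest increase of all 34 genes. It had 80.1, 101, 97.2 and 103 CPM in March1-/- cDC1, and 13.1, 14.8, 14.9 and 16.5 CPM in March1-/- B cells. In WT it had 81.9, 89.8, 83.0 and 84.2 CPM in cDC1, and 15.8, 15.1, 13.6 and 15.8 CPM in B cells. Every cDC1 library stood several-fold above every B cell library. The log2 fold change was 2.69 ± 0.14 in March1-/- and 2.49 ± 0.14 in WT (edgeR adjusted p = 8.44e-14 in March1-/- and 2.66e-13 in WT). Atf6, the sensor that becomes a transcription factor on cleavage, rose less, by 0.52 ± 0.08 in March1-/- and 0.25 ± 0.08 in WT. Eif2ak3, the kinase that restrains translation under stress, moved the other way and fell to 61.2 ± 3.33 CPM in March1-/- cDC1, against 84.98 ± 2.28 CPM in March1-/- B cells. In WT it averaged 55.8 ± 1.86 CPM in cDC1, against 77.1 ± 3.79 CPM in B cells, a log2 fold change of -0.47 ± 0.06 in March1-/- and -0.47 ± 0.06 in WT. The 3 sensors therefore did not move as 1 group.

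Of the transcription factors, Xbp1 had 164, 152, 155 and 148 CPM in March1-/- cDC1, and 107, 111, 103 and 83.2 CPM in March1-/- B cells. The WT libraries had 149.5, 156, 152 and 156 CPM in cDC1, and 102, 133, 134 and 127 CPM in B cells. All cDC1 libraries were above all B cell libraries of their genotype, but by far less than for Ern1. The log2 fold change was 0.62 ± 0.09 in March1-/- and 0.31 ± 0.09 in WT (edgeR adjusted p = 3.68e-06 in March1-/- and 0.00547 in WT). IRE1 alpha splices Xbp1 mRNA, and counts per gene do not separate its spliced and unspliced forms. Atf4, which PERK acts on mainly through translation, fell in March1-/- cDC1 (-0.46 ± 0.08, edgeR adjusted p = 3.86e-05). In WT its log2 fold change was -0.19 ± 0.08 (edgeR adjusted p = 0.0515), which did not pass the test. It did pass without WT B cell library 1 (edgeR adjusted p = 0.0223), WT B cell library 2 (0.0390) or WT cDC1 library 4 (0.0228). Ddit3, encoding the stress factor CHOP, was low in every group and lower in cDC1, at 9.54 ± 1.10 CPM in March1-/- cDC1 against 17.0 ± 2.58 CPM in March1-/- B cells. In WT it averaged 9.98 ± 1.13 CPM in cDC1, against 15.1 ± 0.513 CPM in B cells. Its log2 fold change was -0.84 ± 0.13 in March1-/- and -0.60 ± 0.13 in WT. Ddit3 shares 4.73% of its exon bases with a gene on the opposite strand, so part of its count may belong to another gene. It shares 6.13% on its own strand, where a second id with the symbol Ddit3 lies (105 exon bases). That id held 911 counts over all libraries, against 7504 for the id used, and these 911 are not in the values given.

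All 9 chaperones and co-chaperones were higher in cDC1 in both genotypes, with a median log2 fold change of 1.06 in March1-/- and 0.95 in WT. Hspa5 encodes BiP, the central ER chaperone and a standard reporter of the response. It had 1347, 1179, 1325 and 1329 CPM in March1-/- cDC1, and 667, 574, 586 and 563 CPM in March1-/- B cells. WT values were 1265, 1378, 1579 and 1473 CPM in cDC1, and 615, 643, 732 and 728 CPM in B cells. The lowest cDC1 library of either genotype was well above the highest B cell library, and the change was 2.17-fold in March1-/- and 2.1-fold in WT (edgeR adjusted p = 2.33e-10 in March1-/- and 5.08e-10 in WT). Sdf2l1, a partner of BiP and the co-chaperone ERdj3, changed most of the 9. It had 151, 149.9, 138 and 106 CPM in March1-/- cDC1, and 26.1, 24.6, 21.5 and 17.0 CPM in March1-/- B cells. In WT mice there were 145, 152, 155 and 135 CPM in cDC1, and 28.4, 32.2, 31.2 and 30.0 CPM in B cells. The lowest cDC1 library of either genotype was more than 3 times the highest B cell library. This was 6.1-fold in March1-/- and 4.82-fold in WT. Creld2, a stress-inducible ER protein, followed with 1.53 ± 0.14 on the log2 scale in March1-/- and 1.44 ± 0.14 in WT.

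The remaining 6 chaperones rose by less than Creld2. Dnajc3 (p58IPK, a BiP co-chaperone that also restrains PERK) rose by 1.19 ± 0.08 in March1-/- and 1.10 ± 0.08 in WT on the log2 scale. Hyou1 (GRP170, which exchanges nucleotide on BiP) rose by 1.06 ± 0.09 in March1-/- and 0.95 ± 0.09 in WT. For Manf, an ER protein that can be secreted, the values were 0.78 ± 0.12 in March1-/- and 0.73 ± 0.12 in WT. For Dnajb9 (ERdj4, which keeps IRE1 alpha in check) they were 0.67 ± 0.14 in March1-/- and 0.88 ± 0.14 in WT. For Dnajb11 (ERdj3) they were 0.57 ± 0.09 in March1-/- and 0.61 ± 0.09 in WT. Hsp90b1, the ER form of HSP90 also called GRP94, is required for Toll-like receptors and integrins to fold. It was already abundant in B cells and rose by 0.57 ± 0.11 in March1-/- and 0.60 ± 0.11 in WT. Hsp90b1 shares 10.29% of its exon bases with genes on the opposite strand, Manf 8.85% and the sensor Eif2ak3 8.05%, and it is not known whether reads were counted by strand.

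The lectin chaperones and disulfide isomerases split into 5 genes that rose in cDC1 and 1, Pdia4, that fell, in both genotypes. Pdia3 encodes ERp57, which works with calreticulin and calnexin on glycoproteins. It had 1125, 1068, 1033 and 1002 CPM in March1-/- cDC1, and 417, 390.2, 334 and 301 CPM in March1-/- B cells. In WT it had 1073, 1236, 1247 and 1039 CPM in cDC1, and 390.3, 420.1, 438 and 376 CPM in B cells. The cDC1 libraries of both genotypes were more than 2 times the highest B cell library. The change was 2.93-fold in March1-/- and 2.83-fold in WT (edgeR adjusted p = 1.68e-11 in March1-/- and 3.07e-11 in WT). P4hb, the classical protein disulfide isomerase, rose by 1.47 ± 0.07 in March1-/- and 1.37 ± 0.07 in WT. Calr rose to 1119 ± 96.5 CPM in March1-/- cDC1, against 527 ± 76.2 CPM in March1-/- B cells. In WT Calr was at 1210 ± 75.7 CPM in cDC1 and 577 ± 25.7 CPM in B cells. Pdia6 rose by 0.98 ± 0.10 in March1-/- and 0.84 ± 0.10 in WT. The membrane-bound lectin calnexin (Canx) rose least, by 0.43 ± 0.08 in March1-/- and 0.40 ± 0.08 in WT.

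Pdia4, encoding the disulfide isomerase ERp72, had the reverse pattern. It had 179, 172, 162 and 131 CPM in March1-/- cDC1, and 494, 496, 437 and 452 CPM in March1-/- B cells. The WT libraries had 154, 171, 187 and 156 CPM in cDC1, and 644, 551, 579.6 and 582 CPM in B cells. All cDC1 libraries lay far below all B cell libraries. Pdia4 was 2.92-fold lower in March1-/- cDC1 and 3.53-fold lower in WT cDC1 (edgeR adjusted p = 2.91e-13 in March1-/- and 1.56e-14 in WT). Per length it was at 67.1 RPKM in March1-/- cDC1 and 69.6 RPKM in WT cDC1, near Sec61b (66.3 RPKM in March1-/- cDC1 and 65.7 RPKM in WT cDC1).

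**Figure D2:**
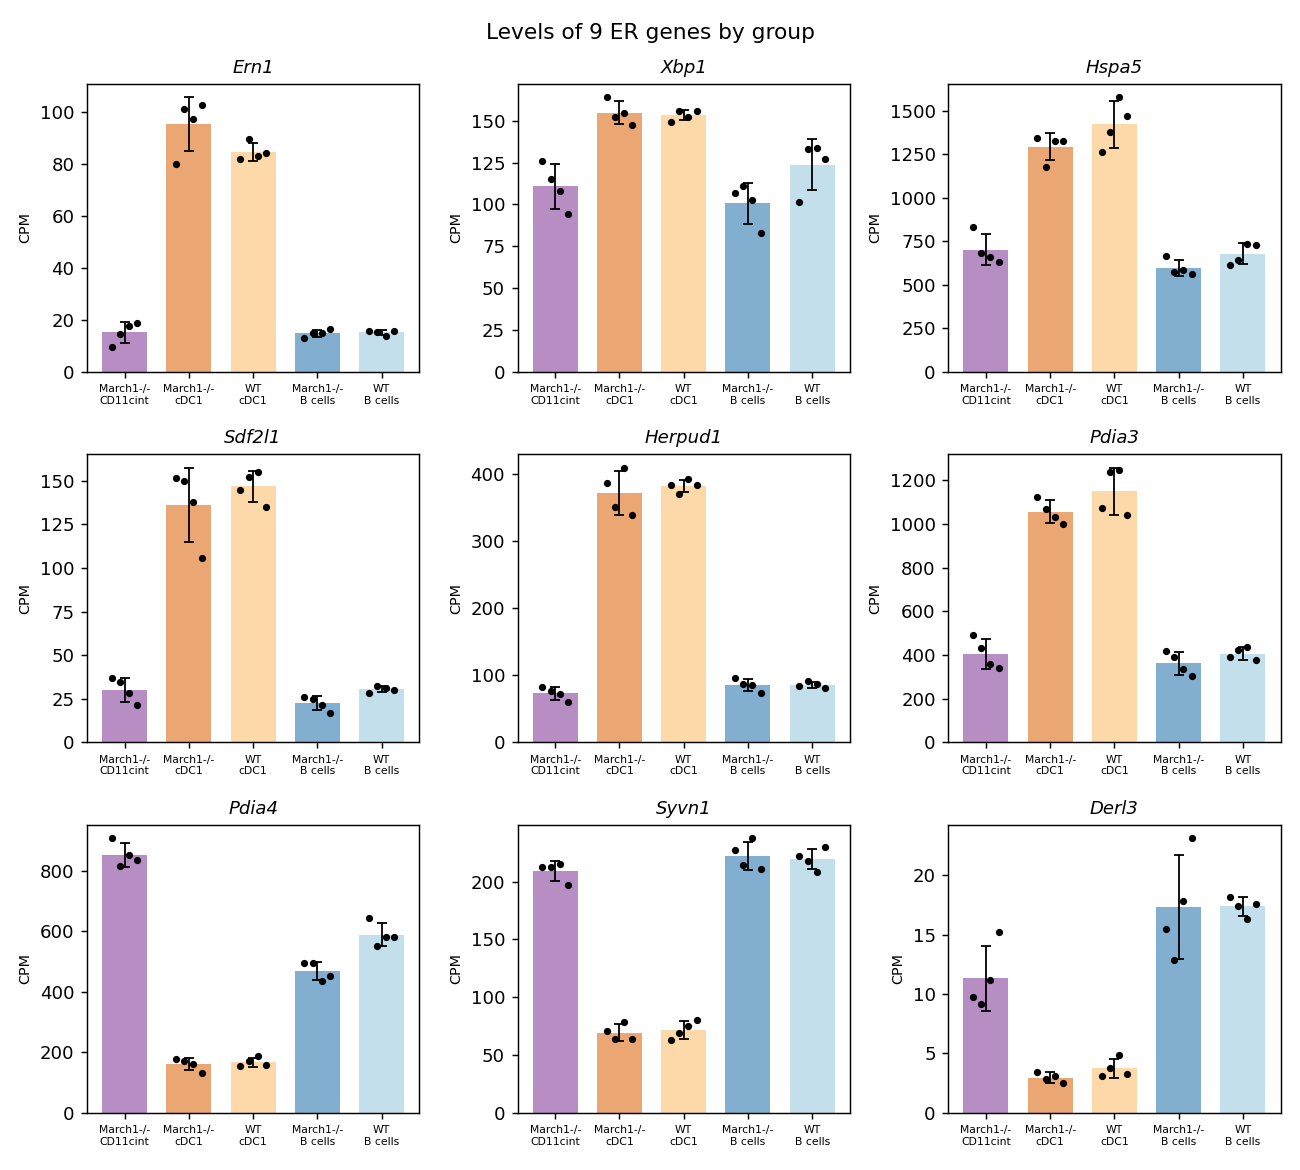
CPM of 9 of the genes in each library (points) by group, with bars at the group mean, error bars of 1 SD (n = 4) and axes that start at 0. Ern1, Sdf2l1, Herpud1, Hspa5 and Pdia3 stand highest in the 2 cDC1 groups, Syvn1 and Derl3 lowest there, and Pdia4 reaches 852 CPM in CD11cint cells.

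Among the 9 genes of ER-associated degradation, 6 rose and 3 fell in March1-/- cDC1, and 5 rose and 3 fell in WT cDC1. Herpud1, a membrane protein that helps assemble the degradation complex, had 387, 351, 409 and 339 CPM in March1-/- cDC1, and 95.7, 86.6, 85.2 and 72.6 CPM in March1-/- B cells. WT values were 383, 370.3, 392 and 383 CPM in cDC1, and 83.1, 91.6, 86.7 and 80.9 CPM in B cells. The cDC1 libraries were more than 3 times the highest B cell library, 4.37-fold in March1-/- and 4.47-fold in WT by the fit (edgeR adjusted p = 1.28e-15 in March1-/- and 9.48e-16 in WT). Sel1l and Syvn1 encode the adaptor and the ubiquitin ligase HRD1 of the same complex, and they moved in opposite directions. Sel1l rose to 185 ± 8.96 CPM in March1-/- cDC1, against 89.1 ± 6.81 CPM in March1-/- B cells. In WT Sel1l was at 196 ± 16.0 CPM in cDC1 and 95.4 ± 5.47 CPM in B cells. Syvn1 had 70.8, 63.8, 78.7 and 64.0 CPM in March1-/- cDC1, and 227, 214, 238 and 211 CPM in March1-/- B cells. In WT Syvn1 had 62.6, 68.6, 75.4 and 80.2 CPM in cDC1, and 222, 218, 209 and 229.7 CPM in B cells. The highest cDC1 library was below the lowest B cell library in both genotypes. Syvn1 was 3.21-fold lower in March1-/- cDC1 and 3.06-fold lower in WT cDC1 (edgeR adjusted p = 4.7e-15 in March1-/- and 9.87e-15 in WT).

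The derlins, channel components of the same pathway, also split. Derl1 rose by 0.46 ± 0.06 in March1-/- and 0.40 ± 0.06 in WT on the log2 scale. Derl2 rose by 0.44 ± 0.07 in March1-/- and 0.48 ± 0.07 in WT. Derl3 fell, with 3.46, 2.80, 3.11 and 2.46 CPM in March1-/- cDC1 and 15.5, 12.8, 17.8 and 23.1 CPM in March1-/- B cells. In WT it had 3.06, 3.79, 4.84 and 3.26 CPM in cDC1, and 18.2, 17.4, 16.3 and 17.6 CPM in B cells. Every cDC1 library was under 5 CPM and every B cell library over 12 CPM, a log2 fold change of -2.55 ± 0.18 in March1-/- and -2.23 ± 0.18 in WT. In this comparison the plasma cell marker list moved with Derl3. The sum of its 10 genes was 76.5 to 112 CPM over March1-/- cDC1, against 759 to 949.9 CPM over March1-/- B cells. In WT it was 91.6 to 125 CPM over cDC1, against 1017 to 1555 CPM over B cells. All 10 were lower in cDC1 in each genotype, and Tnfrsf17 was at 0 in WT cDC1. So were all 8 genes of B cells in general (pan B) and 4 of 5 follicular B cell genes. Of 8 marginal zone B cell genes, 5 were lower and 3 higher. Between the genotypes in B cells the plasma cell list and Derl3 did not move together. The sums above do not overlap, whereas Derl3 was at 17.3 ± 4.38 CPM in March1-/- B cells and 17.4 ± 0.803 CPM in WT B cells. The part of plasma cells in the Derl3 level was not tested. The mannosidase-like Edem proteins hand glycoproteins over for degradation. Of them, Edem2 rose (0.81 ± 0.07 in March1-/- and 0.71 ± 0.07 in WT) and Edem3 fell (-0.49 ± 0.13 in March1-/- and -0.43 ± 0.13 in WT). Edem1 was called in March1-/- (0.22 ± 0.08, edgeR adjusted p = 0.0253) and not in WT (-0.06 ± 0.08). The call in March1-/- was lost without B cell library 1 (edgeR adjusted p = 0.0744), cDC1 library 2 (0.0506) or cDC1 library 3 (0.0761).

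All 4 genes of the translocon, the channel through which proteins enter the ER, rose in cDC1 in both genotypes. Sec61b, a small subunit of the channel, was at 84.3 ± 5.60 CPM in March1-/- cDC1 and 33.2 ± 1.81 CPM in March1-/- B cells. In WT Sec61b was at 83.5 ± 5.76 CPM in cDC1 and 35.2 ± 2.26 CPM in B cells. The log2 fold change of Sec61b was 1.34 ± 0.09 in March1-/- and 1.24 ± 0.08 in WT. Ssr1 and Ssr3 are subunits of the translocon-associated TRAP complex. Ssr1 rose by 1.28 ± 0.05 in March1-/- and 1.19 ± 0.05 in WT. The increase of Ssr3 was 0.98 ± 0.06 in March1-/- and 0.92 ± 0.06 in WT. The channel subunit Sec61a1 rose by 0.83 ± 0.05 in March1-/- and 0.76 ± 0.05 in WT, with 8.16% of its exon bases also in a gene of the opposite strand. The sum of 12 immediate early genes, which respond to handling of cells as well as to signals, was also higher in cDC1. It was 2177 to 3886 CPM over March1-/- cDC1 libraries, against 1190 to 1998 CPM over March1-/- B cells. In WT it was 2602 to 5371 CPM over cDC1, against 1014 to 1902 CPM over B cells. Of these 12, 8 rose and 3 fell in March1-/- cDC1, and 8 rose and 1 fell in WT cDC1. The part of cell handling in the difference between cDC1 and B cells was not tested.

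**Figure D3:**
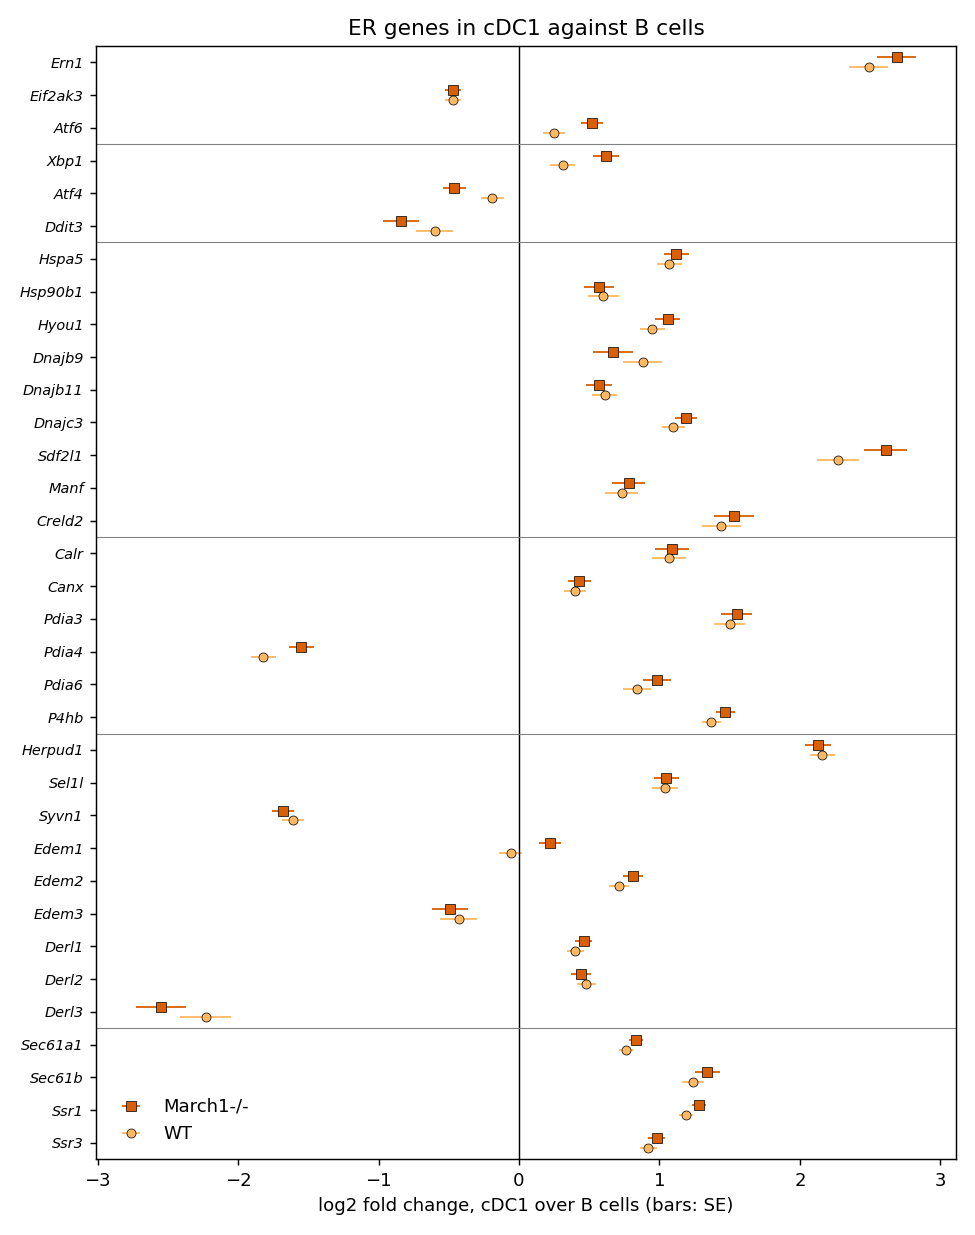
Log2 fold change of each gene in cDC1 over B cells, in March1-/- mice (squares) and in WT mice (circles), with bars of 1 SE; horizontal lines separate the roles. Ern1, Sdf2l1 and Herpud1 lie above 2 in both genotypes, and Derl3, Syvn1 and Pdia4 lie below -1.5.

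Genes with and without an ERSE were found among both the higher and the lower genes of this comparison. Of the 11 genes with an ERSE or ERSE-II in the promoter, 9 were higher and 2 lower in cDC1 in each genotype, with a median log2 fold change of 0.98 in March1-/- and 0.84 in WT. The 2 that were lower, Syvn1 and Derl3, hold the motif printed above. Of the 18 genes with a promoter entry and neither motif, 13 were higher and 5 lower in March1-/- (median 0.74), and 12 were higher, 4 lower and 2 not called in WT (median 0.80). Ern1, Sdf2l1, Pdia3 and Pdia4 hold neither motif in the window searched.

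Between CD11cint cells and March1-/- B cells most of these genes did not pass the test, and Pdia4 had the largest difference. Against March1-/- B cells, 5 of the 34 genes were higher, 2 lower and 27 not called, where 12.5% of all genes were higher and 12.2% lower. Since 24.7% of all genes differed in this comparison and 7 of 34 is 20.6%, the members stood near the background. The median log2 fold change was 0.01 for the 34 genes and 0.01 for all genes, and 0 of the 34 reached 2-fold (5.58% of all genes). Libraries of the groups did not overlap for 6 of the 34 genes, against 22.2% of all genes.

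Pdia4 had 908, 815, 852 and 835 CPM in CD11cint cells, and 494, 496, 437 and 452 CPM in March1-/- B cells. All 4 CD11cint libraries were above all B cell libraries of both genotypes. The log2 fold change was 0.86 ± 0.09, or 1.81-fold (edgeR adjusted p = 1.6e-07), and it was called under every alternative tried. As a sum, the marginal zone B cell list moved with Pdia4, but not every gene of it did. The sum of its 8 genes was 4306 to 5114 CPM over the CD11cint libraries, 727 to 777 CPM over March1-/- cDC1 and 675 to 748 CPM over WT cDC1. Over March1-/- B cells it was 1749 to 2672 CPM, and over WT B cells 2758 to 3492 CPM. The order of the groups is the same as for Pdia4, apart from the 2 cDC1 groups, whose ranges overlap in both. All 8 were called as higher in CD11cint cells in this comparison. Against March1-/- cDC1, 6 of the 8 were higher and 2 lower in CD11cint cells. In cDC1 against B cells, 5 were lower and 3 higher in each genotype. The part of marginal zone cells in the Pdia4 level was not tested.

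Dnajc3 had 110.2, 123.9, 112.1 and 102.3 CPM in CD11cint cells, and 92.54, 101.7, 85.36 and 80.92 CPM in March1-/- B cells. The groups were close but did not overlap (0.32 ± 0.08, edgeR adjusted p = 0.00526). Edem1 had 193, 238, 245 and 271 CPM in CD11cint cells, and 182, 204, 194 and 192 CPM in March1-/- B cells. The lowest CD11cint library lay inside the B cell range (0.29 ± 0.08, edgeR adjusted p = 0.0129), and without CD11cint library 4 the adjusted p was 0.0552. Derl1 averaged 106 ± 8.18 CPM in CD11cint cells, against 93.0 ± 3.72 CPM in March1-/- B cells, without overlap (0.19 ± 0.06, edgeR adjusted p = 0.014). Sdf2l1 had 36.5, 34.5, 28.3 and 21.4 CPM in CD11cint cells, and 26.1, 24.6, 21.5 and 17.0 CPM in March1-/- B cells. Its groups overlapped (0.43 ± 0.15, edgeR adjusted p = 0.0346), and the adjusted p reached 0.161 without CD11cint library 1, 0.113 without CD11cint library 2, 0.0845 without March1-/- B cell library 3 and 0.119 without March1-/- B cell library 4.

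Atf4 and Derl3 were lower in CD11cint cells. Atf4 had 170.1, 137, 154 and 161 CPM in CD11cint cells, and 211, 178, 206 and 206 CPM in March1-/- B cells. The groups did not overlap (-0.37 ± 0.08, edgeR adjusted p = 0.00257). Derl3 had 9.73, 9.14, 11.2 and 15.2 CPM in CD11cint cells, and 15.5, 12.8, 17.8 and 23.1 CPM in March1-/- B cells. The ranges overlapped, with library 4 the highest of both groups (-0.61 ± 0.16, edgeR adjusted p = 0.00849). The plasma cell list summed to 661 to 762 CPM over the CD11cint libraries, against 759 to 949.9 CPM in March1-/- B cells, and 5 of its 10 genes were lower and 1 higher in CD11cint cells. Its defining member Sdc1 (CD138) stood at 1.498 ± 0.325 CPM in CD11cint cells, against 14.6 ± 2.54 CPM in March1-/- B cells. The part of plasma cells in these differences was not tested. The sensors Ern1 (0.03 ± 0.14), Eif2ak3 (-0.14 ± 0.06) and Atf6 (0.11 ± 0.08) did not pass the test. Nor did Xbp1 (0.14 ± 0.09, with a 95% interval of -0.06 to 0.33) or Hspa5 (0.23 ± 0.09, interval 0.04 to 0.42).

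Libraries of CD11cint cells and March1-/- B cells that bear the same number deviated together (r = 0.21 to 0.50 over genes in 4 of 4 pairs). With the replicate number as a block, 13 of the 34 genes were called, 8 higher and 5 lower, and all 7 named above were among them. The block also raised the count over all genes, to 6128 of 18710 against 4613 without it. The 6 gained were Hspa5, Pdia3 and Sec61b, which were higher, and Eif2ak3, Herpud1 and Edem3, which were lower. Other marker lists moved with this comparison. Of 9 cDC1 markers 5 were higher and 0 lower in CD11cint cells, with overlapping sums (1060 to 1277 CPM in CD11cint cells and 1029 to 1161 CPM in March1-/- B cells). Xcr1 was 2.15-fold higher in CD11cint cells, at 2.92 to 4.03 CPM against 1.41 to 2.16 CPM in March1-/- B cells. Of the 5 members higher in CD11cint cells, Dnajc3, Sdf2l1 and Derl1 were also higher in cDC1 than in B cells in both genotypes. Edem1 was so in March1-/- alone, and Pdia4 was lower in cDC1. Ern1 (0.03) and Herpud1 (-0.23), with Sdf2l1 the largest increases in cDC1, were not called in CD11cint cells in the main fit. Of 8 T cell genes 7 were lower (33.9 to 40.7 CPM in CD11cint cells and 85.4 to 105 CPM in March1-/- B cells), and all 5 B-1 genes were lower (24.9 to 40.9 CPM in CD11cint cells and 90.3 to 142 CPM in March1-/- B cells). Of 6 NK cell genes 5 were lower and 1 higher (11.4 to 24.4 CPM in CD11cint cells and 19.8 to 67.4 CPM in March1-/- B cells). The follicular B cell list summed to 1473 to 1689 CPM over CD11cint libraries, against 2546 to 3109 CPM over March1-/- B cells. Of its 5 genes 4 were lower and 1 higher in CD11cint cells. The immediate early list was at 645.6 to 1184 CPM in CD11cint cells, against 1190 to 1998 CPM in March1-/- B cells, with 8 of its 12 genes lower in CD11cint cells, and the part of all these lists in the members' values was not tested. In the fit of the 2 groups alone 3 were called, Pdia4, Dnajc3 and Atf4, and these 3 were called under every alternative tried. Leaving out 1 library gained up to 3 genes at a time. Atf6 and Ddit3 passed without CD11cint library 1, Eif2ak3 without CD11cint library 2 and Edem2 without CD11cint library 4. Herpud1 passed without CD11cint library 1 or March1-/- B cell library 4, and Hspa5 without CD11cint library 4 or March1-/- B cell library 1.

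Compared with March1-/- cDC1, CD11cint cells held less of most of the machinery. Of the 34 genes, 26 were lower, 5 higher and 3 not called, against 35.7% lower and 36.6% higher (72.3% in all) among all genes. The groups did not overlap for 31 of the 34, against 62.7% of all genes. All 9 chaperones, all 4 translocon genes and 5 of 6 lectin chaperones and disulfide isomerases were lower. The comparison shares the CD11cint libraries with the one before and the cDC1 libraries with that of cDC1 against B cells. Pdia4 was 5.3-fold higher in CD11cint cells (log2 2.40 ± 0.09, edgeR adjusted p = 1.27e-16), the largest increase, followed by Derl3 (1.93 ± 0.19) and Syvn1 (1.59 ± 0.08). The other 2 that were higher were Ddit3 (0.63 ± 0.13) and Eif2ak3 (0.33 ± 0.06). The largest decreases were those of Ern1 (-2.66 ± 0.14), Herpud1 (-2.35 ± 0.09) and Sdf2l1 (-2.18 ± 0.15). Atf4 (0.10 ± 0.08), Edem1 (0.08 ± 0.08) and Edem3 (0.25 ± 0.13) did not pass the test. Without CD11cint library 1 both Edem3 (edgeR adjusted p = 0.00012) and Edem1 (0.041) were called as higher.

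Between genotypes the members moved little. In B cells, 2 of the 34 genes were lower in March1-/- mice and 0 were higher, against 2.44% lower and 2.31% higher (4.76% in all) among all genes. The 2 were Pdia4 and Edem1. Pdia4 had 494, 496, 437 and 452 CPM in March1-/- B cells, and 644, 551, 579.6 and 582 CPM in WT B cells. The groups did not overlap (-0.33 ± 0.09, edgeR adjusted p = 0.0296). Edem1 had 182, 204, 194 and 192 CPM in March1-/- B cells, and 246, 235, 243 and 245 CPM in WT B cells. These groups did not overlap either (-0.33 ± 0.08, edgeR adjusted p = 0.0243). Neither call survived every omission of 1 library. Pdia4 was lost without March1-/- library 3 or 4 or WT library 1, 3 or 4, with an edgeR adjusted p of 0.0565 to 0.130. Edem1 was lost without library 1, 3 or 4 of either genotype, with 0.0505 to 0.0882. The marginal zone list summed to 1749 to 2672 CPM in March1-/- B cells and 2758 to 3492 CPM in WT B cells, with 7 of its 8 genes lower in March1-/- B cells. The plasma cell list was also lower, at 759 to 949.9 CPM in March1-/- B cells and 1017 to 1555 CPM in WT B cells (2 of 10 genes called). The follicular list was higher, at 2546 to 3109 CPM in March1-/- B cells and 1899 to 2415 CPM in WT B cells (3 of 5 called). Of 7 germinal centre genes 4 were lower and 1 higher, while their sums overlapped (77.3 to 119 CPM in March1-/- B cells and 98.0 to 122 CPM in WT B cells). The part of these lists in the differences of Pdia4 and Edem1 was not tested.

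The other members in B cells did not pass the test. Sdf2l1 had 26.1, 24.6, 21.5 and 17.0 CPM in March1-/- B cells, and 28.4, 32.2, 31.2 and 30.0 CPM in WT B cells. No March1-/- library reached the lowest WT library, but the spread in March1-/- was wide (-0.45 ± 0.15, edgeR adjusted p = 0.0939). Xbp1 (-0.30 ± 0.09, edgeR adjusted p = 0.0797) and Atf4 (0.28 ± 0.08, edgeR adjusted p = 0.0649) came nearest to the threshold. Xbp1 passed without WT library 1 (edgeR adjusted p = 0.0193), and Atf4 without March1-/- library 2 (0.0312) or WT library 4 (0.0378). Including the 2 called genes, 7 of 34 had an unadjusted edgeR p under 0.05, against 15.7% of all genes. The median log2 fold change of the 34 was -0.10, against -0.01 for all genes, and 8 of 34 had groups that did not overlap, against 11.3% of all genes. The same March1-/- B cell libraries are the reference for the CD11cint comparison, so the values of Pdia4, Edem1, Sdf2l1, Dnajc3 and Atf4 in the 2 comparisons are not independent. Side by side, Pdia4 was at 852 ± 39.9 CPM in CD11cint cells, 469.9 ± 30.0 CPM in March1-/- B cells and 589 ± 39.2 CPM in WT B cells. Edem1 averaged 237 ± 32.8 CPM in CD11cint cells, 193 ± 9.10 CPM in March1-/- B cells and 242 ± 5.02 CPM in WT B cells.

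In cDC1, 0 of the 34 genes were called between the genotypes by edgeR, against 1.53% higher and 1.34% lower (2.86% in all) among all genes, and 0 by limma-voom or DESeq2. At an unadjusted edgeR p under 0.05 there was 1, Eif2ak3 (0.13 ± 0.06), against 10.8% of all genes. Log2 fold changes ran from -0.33 (Derl3) to 0.17 (Ern1), and the 95% interval lay within 0.5 of 0 on the log2 scale for 33 of the 34. Libraries of the 2 genotypes overlapped for all 34 genes (8.48% of all genes did not overlap). Hspa5 averaged 1295 ± 78.0 CPM in March1-/- cDC1, against 1424 ± 134 CPM in WT cDC1, with an interval of -0.33 to 0.05 for the log2 fold change. For Xbp1 the interval was -0.18 to 0.21 and for Calr -0.36 to 0.13. Derl3, the member with the widest interval (-0.75 to 0.09), was also among the lowest in count. Markers of B cells were higher in March1-/- cDC1, with 6 of the 8 pan B genes called and a sum of 148 to 196.9 CPM over March1-/- cDC1, against 118.5 to 133.9 CPM over WT cDC1. The part of B cell RNA in the values of the 34 genes was not tested.

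Whether the genotypes differ by cell type was tested as an interaction, the March1-/- minus WT difference in cDC1 less that in B cells. By edgeR 0 of 34 genes were called (1.49% of all genes were higher and 0.871% lower, 2.36% in all), and 0 by limma-voom or DESeq2. With the replicate number within genotype as a block 3 were called, Atf6 and Sdf2l1 as higher and Atf4 as lower, and the count over all genes went up to 978 against 441. At an unadjusted p under 0.05 edgeR gave 5, against 11.8% of all genes. They were Atf6 (0.27 ± 0.11), Xbp1 (0.31 ± 0.13), Edem1 (0.28 ± 0.12), Pdia4 (0.27 ± 0.12) and Atf4 (-0.28 ± 0.12), on the log2 scale. The interval lay within 0.5 of 0 for 24 of the 34 genes. The cDC1 over B cell log2 fold changes of the 2 genotypes differed by at most 0.34, for Sdf2l1.

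**Figure D4:**
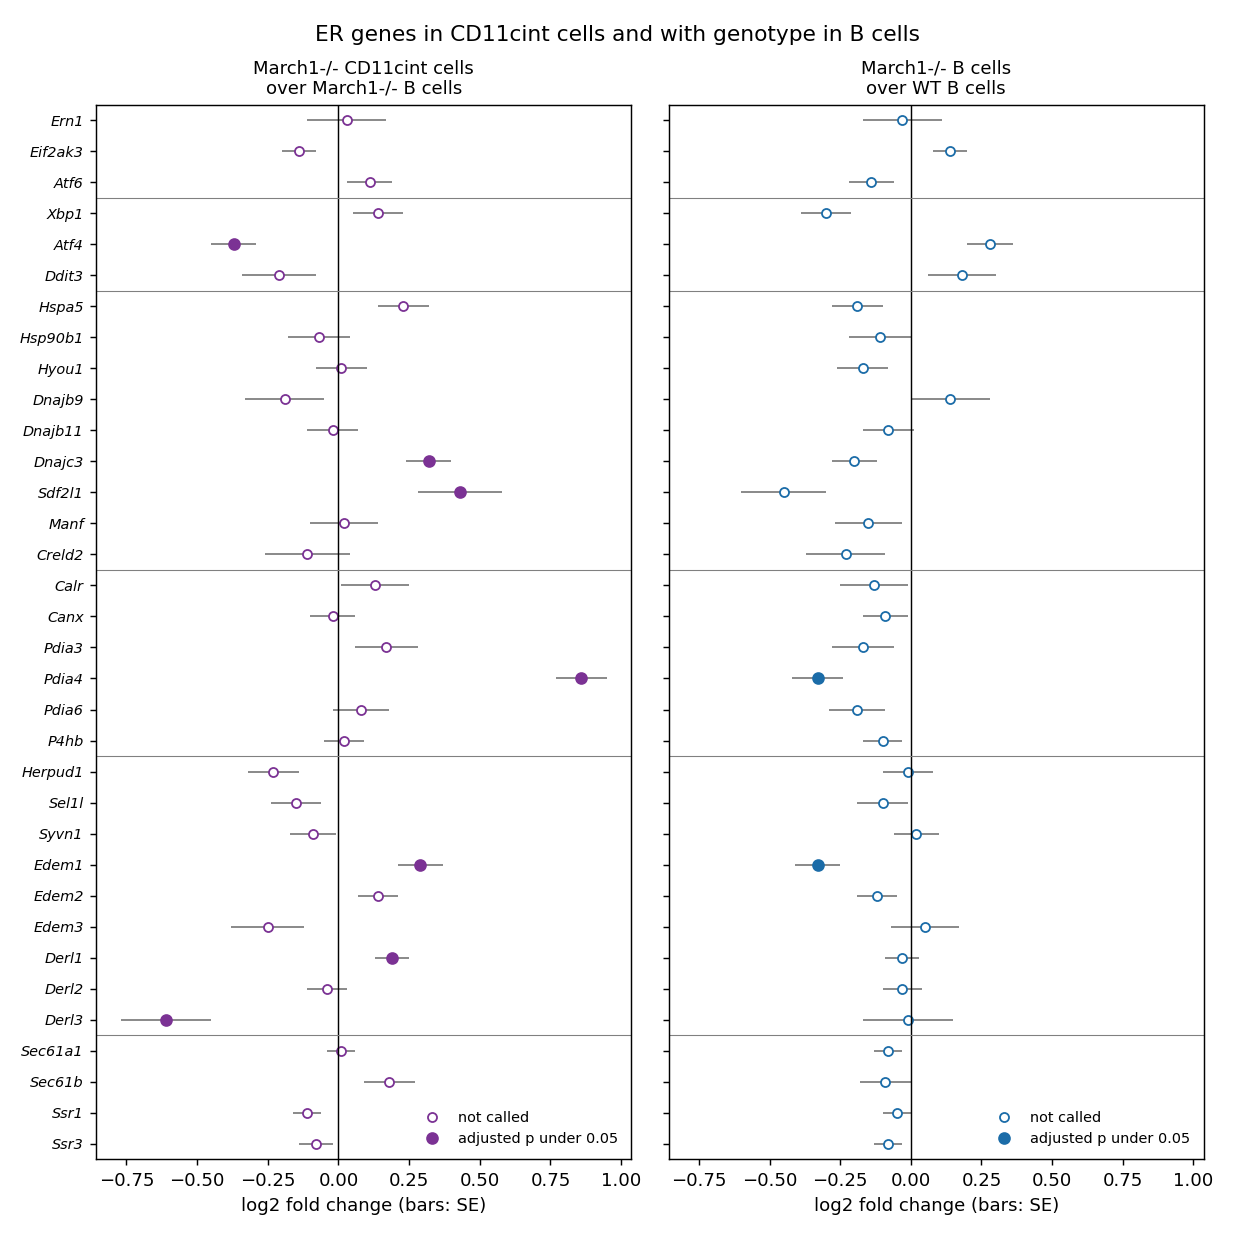
Log2 fold change (bars: 1 SE) of the 34 genes in March1-/- CD11cint cells over March1-/- B cells (left) and in March1-/- B cells over WT B cells (right), with filled points where the adjusted p is under 0.05. Pdia4 stands apart at 0.86 on the left and lies at -0.33 on the right; the 2 panels share the March1-/- B cell libraries.

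Part of the spread within groups was common to many members. Library 4 was the lowest of its group for 21 of 34 genes in CD11cint cells (27.3% of all genes), for 23 of 34 in March1-/- cDC1 (32.6% of all genes) and for 19 of 34 in March1-/- B cells (26.7% of all genes). Its mean deviation from the group over the 34 genes was -0.08 in CD11cint cells, -0.10 in March1-/- cDC1 and -0.09 in March1-/- B cells, on the log2 scale. The chaperones show it gene by gene. Creld2 had 32.1, 26.3, 24.2 and 20.1 CPM in CD11cint cells and 92.8, 84.8, 83.1 and 57.9 CPM in March1-/- cDC1, and 32.6, 26.1, 28.8 and 22.8 CPM in March1-/- B cells. Library 4 was the lowest in each. Hyou1 had 142, 158, 142 and 115 CPM in CD11cint cells and 302, 296, 309 and 242 CPM in March1-/- cDC1, and 142, 148, 148 and 115 CPM in March1-/- B cells, again with library 4 the lowest in each. Ern1 and Derl3 did not follow, since library 4 was the highest for Ern1 in all 3 groups. For Derl3 it was the highest in CD11cint cells and March1-/- B cells and the lowest in March1-/- cDC1. In WT cDC1, library 3 was the highest for 20 of 34 genes (16.2% of all genes) and library 1 the lowest for 16 (27.2% of all genes). CD11cint library 1 stood farthest from its group over all genes. It was the lowest CD11cint library for Ern1, Sel1l, Edem3 and Atf6 and the highest for Hspa5, Calr and Pdia3. What the libraries of a number share is not given in the labels. The sum of 7 erythroid genes was highest in library 1 of CD11cint cells (4770 CPM), March1-/- B cells (5052 CPM) and March1-/- cDC1 (2444 CPM). In WT it was highest in library 3 of B cells (4129 CPM) and of cDC1 (2378 CPM). A sum of 7 neutrophil genes had its highest libraries at the same numbers. The immediate early sum was lowest in library 2 in each of the 5 groups. The part of these lists in the deviations was not tested.

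**Figure D5:**
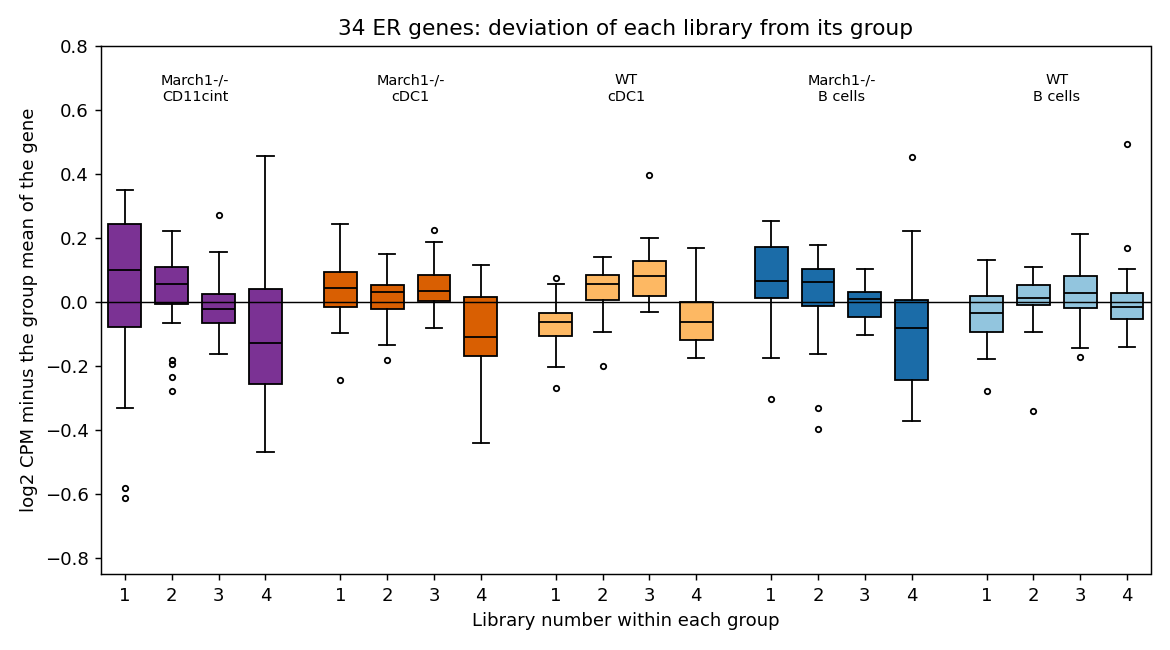
Deviation of each library from its group mean over the 34 genes, as log2 CPM minus the group mean of the gene. Boxes span the quartiles with the median, whiskers reach the farthest genes not drawn as separate points, and library 4 lies low in the 3 March1-/- groups.

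Other genes of the ER were taken from 8 lists of 128 genes, of which 124 were tested, covering further sensors, the integrated stress response, oxidative folding, glycan quality control, other chaperones, degradation, translocation and traffic to the Golgi. In March1-/- mice 83 were higher and 14 lower in cDC1 than in B cells (35.7% and 35.9% of all genes), and in WT mice 82 were higher and 15 lower (34.9% and 36.2% of all genes). Of the 17 genes of traffic between ER and Golgi, 15 were higher in March1-/- cDC1, 16 were higher in WT cDC1 and 0 were lower in either. The largest increases were those of Pdia5, a disulfide isomerase, with 166 CPM in March1-/- cDC1 and 0.494 CPM in March1-/- B cells (8.38 ± 0.17, edgeR adjusted p = 2.51e-21). The WT libraries had 185 CPM in cDC1 and 0.403 CPM in B cells (8.83 ± 0.17). The stress factor Atf3 (5.74 ± 0.53 in March1-/- and 5.45 ± 0.50 in WT) and the coat protein gene Sec24d (1.98 ± 0.10 in March1-/- and 2.17 ± 0.10 in WT) followed. Mzb1, a chaperone of antibody assembly that is also on the plasma cell list, was the largest decrease, with 4.95 CPM in March1-/- cDC1 and 196 CPM in March1-/- B cells, and 2.20 CPM in WT cDC1 and 220.3 CPM in WT B cells. Phgdh, of serine synthesis, was lower as well, with a log2 fold change of -3.03 ± 0.11 in March1-/- and -3.3 ± 0.12 in WT.

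Against March1-/- B cells, 15 of the 124 were higher and 9 lower in CD11cint cells, no more than the background (12.5% of all genes higher and 12.2% lower). Those with the largest increases were the stress-response genes Sesn2 (0.65 ± 0.11) and Ddit4 (0.65 ± 0.22), with Mzb1 (0.49 ± 0.09). The largest decreases were those of the translocation gene Tram2 (-1.07 ± 0.14) and of the disulfide isomerase relatives Txndc5 (-1.05 ± 0.07) and Txndc11 (-0.78 ± 0.07). Against March1-/- cDC1, 13 were higher and 85 lower in CD11cint cells (36.6% and 35.7% of all genes). Between genotypes 2 were higher and 3 lower in March1-/- B cells, where 4.76% of all genes were called, and 4 were higher and 0 lower in March1-/- cDC1, where 2.86% were. Both are near the background. In cDC1 these included Ddit4, at 17.2 CPM in March1-/- and 5.48 CPM in WT (1.65 ± 0.25, edgeR adjusted p = 0.000432), and Tusc3 of the glycan-transfer complex (0.96 ± 0.07). Spcs3 was higher in March1-/- cDC1 (0.30 ± 0.07) and also in March1-/- B cells (0.27 ± 0.07, edgeR adjusted p = 0.0311). Tusc3 and Spcs3 lie on chromosome 8, at 26.45 and 11.09 Mb from March1. Of the 34 members, Calr and Herpud1 lie on the same chromosome, at 18.37 and 27.91 Mb, and neither was called between genotypes. Ddit4 (1.60 ± 0.33), Mzb1 (1.34 ± 0.17) and Tusc3 (0.76 ± 0.10) were higher in the interaction test. In it 5 of the 124 were called, all higher, where 1.49% of all genes were higher and 0.871% lower.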

How the data were processed

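RNA sequencing libraries of 20 samples of sorted spleen cells, 5 groups of 4, were analysed from read counts per gene, as the authors deposited them, with 2 lanes per library already summed. RNA was extracted with RNeasy kits and libraries were made by Illumina TruSeq, per the labels' protocols. The tools named are CASAVA, FastQC, STAR, Subread, edgeR and limma, with GRCm38 (mm10), per the submitters' processing notes. Neither versions nor the strand setting of the counting are named there, and reads of overlapping genes on opposite strands may not be separated. The deposited counts were not altered.

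Here 18710 genes with enough counts by group (99.9459% of counts) were fitted in 1 model of all 20 libraries with edgeR 4.0.16 in R 4.3.3 (TMM factors, robust quasi-likelihood F test, 15 residual degrees of freedom), with Benjamini-Hochberg adjustment over all genes tested in each of 7 contrasts. The common biological coefficient of variation was 10.91%. Precision is limited by this spread and, for genes of few counts such as Derl3, by depth (22491084 to 32751804 counts per library). SE is the log2 fold change over the square root of F, and intervals are 95%. The fit was tested on simulated data. CPM use TMM-scaled totals, and RPKM use the union of exons in GENCODE M21, to which 28290 of 28338 ids matched (the other 48 hold 0.0414% of counts). Ddit3 has 2 ids, of which the one with the longer gene model was used.

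The 34 genes, the marker lists and the other ER lists were chosen with earlier results of these data known, and no test was made of a list as a whole. All 34 are described. Outside them, the genes named are at most the 3 with the largest called change in each direction in each contrast, among those of the other ER lists with a mean of at least 10 CPM in either group, and the markers that define each cell type. Alternatives were RLE factors, no filter on low counts, a fit of the compared groups alone, limma-voom (limma 3.58.1), DESeq2 1.42.0, the replicate number as a block, and each library left out; a block across genotypes and the joint omission of March1-/- libraries numbered 1 were added after seeing the data. Same-numbered CD11cint and March1-/- B cell libraries deviated together (r = 0.21 to 0.50 in 4 of 4 pairs). The main fit holds no block, so its SE and p-values do not use this, and the block was run as an alternative only. In the other comparisons within a genotype the same number was also the best match in 4 of 4 pairs. There r was 0.03 to 0.37 for CD11cint cells and March1-/- cDC1. It was 0.09 to 0.20 for cDC1 and B cells in March1-/-, and 0.09 to 0.32 in WT. Between genotypes it was the best match in 2 of 4 pairs of B cells and 3 of 4 of cDC1.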

Additional observations from a re-analysis of the deposited data

Results flagged for a closer look

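In each of 170 sets of 4 libraries (34 genes in 5 groups) the library farthest from the others was compared with Dixon's 95% critical value for 4 values. Chance puts about 1 in 20 sets past it, and 9 of 170 were.

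Of the 9, 5 were in cDC1 of March1-/- mice or WT mice with 1 library low. In March1-/- cDC1, library 2 had 1179 CPM of Hspa5 (the others 1325 to 1347 CPM). Library 4 of the same group had 184.5 CPM of Dnajc3 (the others 210.6 to 213.6 CPM), 491.7 CPM of P4hb (571.9 to 578.8 CPM) and 75.91 CPM of Sec61b (86.37 to 87.52 CPM). In WT cDC1, library 2 had 76.32 CPM of Edem2 (78.63 to 79.09 CPM). The same WT library was the high one for Dnajb9, with 53.92 CPM (49.22 to 49.34 CPM).

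In the other 3 sets, CD11cint library 1 had 135.7 CPM of Sec61a1 (133.6 to 134.0 CPM), March1-/- B cell library 1 had 81.57 CPM of Eif2ak3 (85.84 to 86.32 CPM), and WT B cell library 1 had 124.4 CPM of Atf6 (115.4 to 116.8 CPM). All of these differences but those of March1-/- cDC1 were within 9 CPM of the nearest library.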

How the results depend on the processing

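No result reversed. The 31 of 31 members called between CD11cint cells and cDC1, 32 of 32 between cDC1 and B cells in WT and 33 of 34 in March1-/- were called under every alternative tried (the exception is Edem1). This held for 3 of 7 between CD11cint cells and March1-/- B cells and 0 of 2 between genotypes in B cells.

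Between CD11cint cells and March1-/- B cells, the fit of the compared groups alone called 3 members and 3018 genes, against 7 and 4613, and the replicate block called 13 members and 6128 genes. Between genotypes in B cells the block across genotypes called 6 members and 1328 genes, against 2 and 890. For the interaction, DESeq2 called 697 genes and the block within genotype 978 genes and 3 members, against 441 genes and 0 members. The block changed no other count of members by over 1.5 times. The causes were not tested.

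With 1 library left out, the members called (and genes called) ranged from 0 to 3 (574 to 879) between genotypes in B cells and from 0 to 0 (370 to 537) in cDC1. They ranged from 6 to 9 (3650 to 4751) between CD11cint cells and March1-/- B cells, and from 31 to 33 (13106 to 13713) between CD11cint cells and cDC1. Between cDC1 and B cells they ranged from 33 to 34 (13006 to 13201) in March1-/- and from 32 to 33 (12891 to 13045) in WT. For the interaction they ranged from 0 to 0 (313 to 555). Without all March1-/- libraries numbered 1, 6 members were called between CD11cint cells and March1-/- B cells and 2 between genotypes in B cells.

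Derl3, with few counts, has the widest interval of the 34 genes in each contrast.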
